A study of Homo sapiens with 8 samples.

Results

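Cadherins and protocadherins were followed in human lung fibroblasts, across proliferation, bleomycin-induced senescence and induction of an active form of YAP. The genes were taken by symbol: the numbered CDH and PCDH genes, the clustered protocadherins, the FAT and DCHS genes and the desmosomal DSG and DSC genes, PCDH11Y left out. Of 54628 rows in the count table, 101 carried such a symbol, and the 21 with 50 or more counts summed over the 8 libraries are described here. Just inside that limit lay CDH11 with 58 counts, and just outside it PCDH19 with 47. Of the 21, 10 were CDH genes, 6 were protocadherins outside the clusters, 4 belonged to the Fat and Dachsous group, and PCDHB15 was a clustered protocadherin. All 21 passed the filter on low counts and were tested.

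Cadherins are membrane proteins whose extracellular repeats bind calcium and hold neighbouring cells together. Classical cadherins bind like to like and couple through beta- and alpha-catenin to actin, desmosomal cadherins anchor intermediate filaments, and protocadherins lack the catenin-binding tail and add recognition and signalling. Fibroblasts are known for N-cadherin (CDH2) and OB-cadherin (CDH11), whereas E-cadherin (CDH1) is the adhesion molecule of epithelia. The giant cadherins FAT4 and DCHS1 bind each other across cell borders and act in planar polarity, and Fat cadherins feed into the Hippo pathway that restrains YAP.

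The cells were IMR90-hTERT, a lung fibroblast line kept dividing by telomerase, and all 4 groups carried the pInducer20 vector with a doxycycline-inducible, Flag-tagged YAP5SA, a YAP that the Hippo kinases cannot switch off, and was grown in low oxygen. The groups, with 2 libraries each, were proliferating cells without and with doxycycline (1 ug/ml for 11 days) and senescent cells without and with the same doxycycline. Senescence was induced with 10 ug/ml bleomycin, a drug that breaks DNA, for 24 hours, and cells were assessed 9 days later. No group of doxycycline-treated cells without the transgene was among these libraries, so effects of the drug and of YAP5SA cannot be told apart, and "with doxycycline" below means both. Whether the replicates were separate cultures is not stated in the labels, so p-values measure the spread between these libraries, which may be technical.

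Library totals were 33627708 to 39692162 counts. Levels are CPM, counts scaled to a library of 1000000 after trimmed-mean correction of its size, and changes are log2 values from edgeR's quasi-likelihood fit, with their standard error (SE) and a p adjusted over 17155 genes, called at 0.05. YAP1, whose counts take in the endogenous gene and may take in the transgene, measured 198, 195, 190 and 238 CPM in proliferating cells without and then with doxycycline (log2 change 0.12, adjusted p = 0.43). In senescent cells it measured 190, 223, 290 and 286 CPM (log2 change 0.48, adjusted p = 0.0014). All 12 fibroblast markers lay above 1 CPM in every group. Of 17 epithelial markers, 10 stayed under 1 CPM in both libraries of senescent cells with doxycycline, and 12 in both libraries of each other group. Of 10 leukocyte markers, 9 averaged under 1 CPM in every group, PTPRC among them. The other, the lysosomal protein gene CD68, averaged 69.9, 53.1, 146 and 63.9 CPM in proliferating cells without and with doxycycline and senescent cells without and with it. Of 12 neuronal and glial markers, 9 to 11 averaged under 1 CPM, SOX10 was listed at 0, and MBP and MAP2 averaged up to 6.47 and 4.51 CPM.

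Start regions of 4 members for which RefSeq lists a promoter are shown first, as examples. CDH4 and CDH20 are genes that rose with doxycycline in proliferating cells, PCDH18 fell in all 4 comparisons, and PCDH7 moved in opposite directions with doxycycline in the 2 cell states. CDH20 lay under 1 CPM, and its rise with doxycycline lost its call when single libraries were left out. Each run is the 250 bases before a start listed in RefSeq (GRCh38.p14), 5′ to 3′ on the gene's own strand. Capitals mark GGAATG, the core bound by TEAD factors, and CAGGTG, an E-box of the kind bound by SNAI and ZEB factors, on either strand. The positions are chr20:61499171-61499420 on the plus strand for CDH4, chr18:61333180-61333429 plus for CDH20, chr4:137532495-137532744 minus for PCDH18 and chr4:30720119-30720368 plus for PCDH7.
CDH4: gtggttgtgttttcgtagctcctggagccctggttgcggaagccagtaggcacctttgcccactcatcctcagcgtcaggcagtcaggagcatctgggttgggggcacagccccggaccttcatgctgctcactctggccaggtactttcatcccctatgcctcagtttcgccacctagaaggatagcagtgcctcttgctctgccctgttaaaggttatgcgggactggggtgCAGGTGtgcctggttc
CDH20: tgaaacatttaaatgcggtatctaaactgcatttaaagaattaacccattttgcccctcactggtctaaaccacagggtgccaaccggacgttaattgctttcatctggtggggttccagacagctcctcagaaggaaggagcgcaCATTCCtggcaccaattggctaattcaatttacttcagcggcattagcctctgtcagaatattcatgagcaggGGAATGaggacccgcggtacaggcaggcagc
PCDH18: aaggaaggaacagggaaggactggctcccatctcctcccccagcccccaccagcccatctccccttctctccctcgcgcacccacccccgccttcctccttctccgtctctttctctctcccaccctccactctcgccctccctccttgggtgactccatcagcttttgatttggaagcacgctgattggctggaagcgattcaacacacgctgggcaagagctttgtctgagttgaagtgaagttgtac
PCDH7: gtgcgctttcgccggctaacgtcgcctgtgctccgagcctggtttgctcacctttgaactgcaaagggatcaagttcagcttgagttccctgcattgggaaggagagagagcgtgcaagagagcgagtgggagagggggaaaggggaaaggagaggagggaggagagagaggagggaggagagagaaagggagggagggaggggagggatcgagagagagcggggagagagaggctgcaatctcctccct
The CDH4 run lies at a start inside the gene, since RefSeq begins CDH4 at position 61252261 of chromosome 20 and GENCODE at 61252426.

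RefSeq promoter windows of 300 bases, which also hold 50 bases after the start, were found for 12 of the 21 members. GGAATG was present in 14.0% of 27305 such windows and in 1 of the 12, CDH20, at positions -104 and -31 from the start. CAGGTG was present in 20.6% of all windows and in the windows of CDH4, at -16, and PCDH1, at -81. The windows of CDH4, PCDH1 and FAT2 lay at starts inside the RefSeq span of the gene. TGAGTCA, an AP-1 site, was present in 4.9% of windows and in none of the 12. CGCT, part of the element bound by CTCF in clustered protocadherin promoters, was present in 69.4% of all windows and in 11 of the 12. All 4 motifs were searched on both strands, and a match describes letters, not a bound site.

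**Figure D1:**
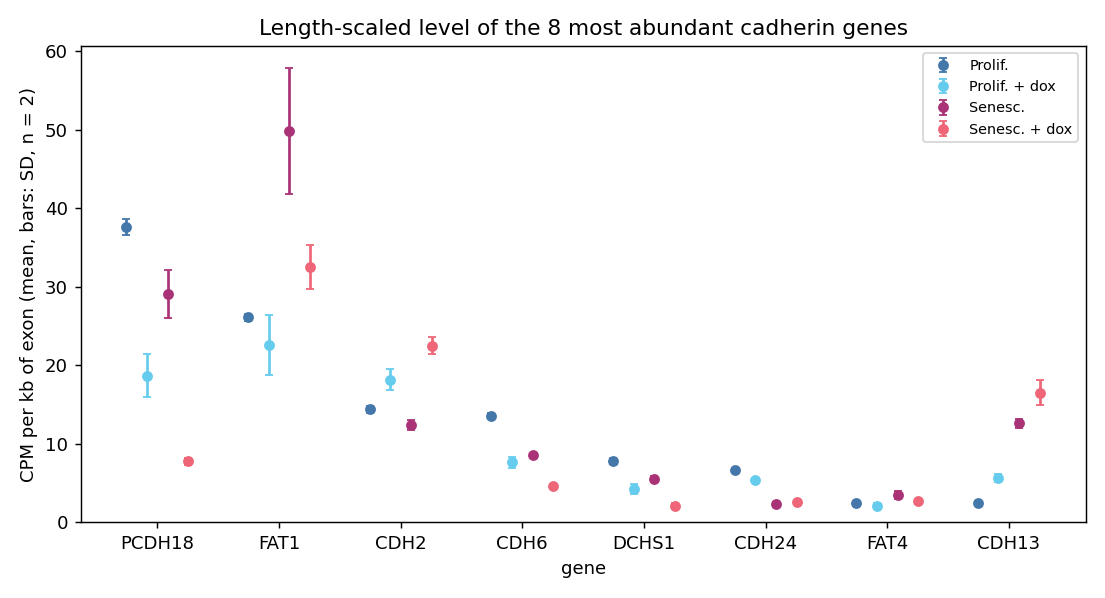
Length-scaled level (CPM per kb of exon) of the 8 members with the highest level in proliferating cells. Points are means of 2 libraries and bars are SD; PCDH18 drops from 37.6 in proliferating cells to 7.80 in senescent cells with doxycycline, while FAT1 is the highest point in senescent cells at 49.8.

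Scaled to exon length, PCDH18, a protocadherin outside the clusters, had the highest level in proliferating cells, 37.6 ± 1.01 CPM per kb (SD, n = 2). It was followed by FAT1 at 26.1 ± 0.428, CDH2 at 14.4 ± 0.421, CDH6 at 13.5 ± 0.404, DCHS1 at 7.84 ± 0.408, CDH24 at 6.66 ± 0.0241, FAT4 at 2.50 ± 0.0508 and CDH13 at 2.45 ± 0.105 CPM per kb. FAT4 and CDH13 were neighbours that did not differ beyond their spread. All other members lay at or under 0.478 CPM per kb. In senescent cells the order was FAT1 (49.8 ± 8.04), PCDH18 (29.1 ± 3.09), CDH13 (12.6 ± 0.555) and CDH2 (12.4 ± 0.630 CPM per kb), the last pair within their spread. With doxycycline in senescent cells it was FAT1 (32.6 ± 2.80), CDH2 (22.5 ± 1.12), CDH13 (16.5 ± 1.59) and PCDH18 (7.80 ± 0.447 CPM per kb). PCDH18 thus moved from rank 1 to rank 4 and CDH13 from rank 8 to rank 3 between proliferating cells and senescent cells with doxycycline.

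Doxycycline in proliferating cells raised 5 members and lowered 5, where 23.0% of all genes tested were called, 12.6% higher and 10.4% lower; the members' median log2 change was -0.02 and that of all genes 0.00. In senescent cells doxycycline raised 8 and lowered 7, against a background of 46.3%, 22.6% higher and 23.8% lower, with medians of 0.15 and 0.00. Senescence without doxycycline raised 7 and lowered 6, against 59.2%, 29.8% higher and 29.4% lower, with medians of 0.24 and 0.01. Senescence with doxycycline raised 8 and lowered 5, against 55.5%, 26.8% higher and 28.7% lower, with medians of 0.31 and -0.01. As a description with no test, the members' share called lay above that of all genes with doxycycline and close to it with senescence. The 6 members PCDH18, CDH6, CDH13, CDH2, DCHS1 and CDH1 were called in all 4 comparisons, 17 in at least 1, and 4, PCDH1, FAT2, PCDHB15 and CDH11, in none. Of all genes tested, 9.88% were called in all 4 and 79.8% in at least 1. Senescent cells with doxycycline held 82 of the 116 counts of CDH1 and 82 of the 111 counts of CDH10. Without that group neither gene would have met the count limit for members. The numbers and shares of members called include both genes, so they depend in part on how members were chosen. Comparisons that share a group of libraries are not independent. Scaled by total counts alone, the members' split became 9 higher and 5 lower for doxycycline in senescent cells and 5 higher and 7 lower for senescence without doxycycline, as the median of all genes moved to 0.17 and -0.16.

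**Figure D2:**
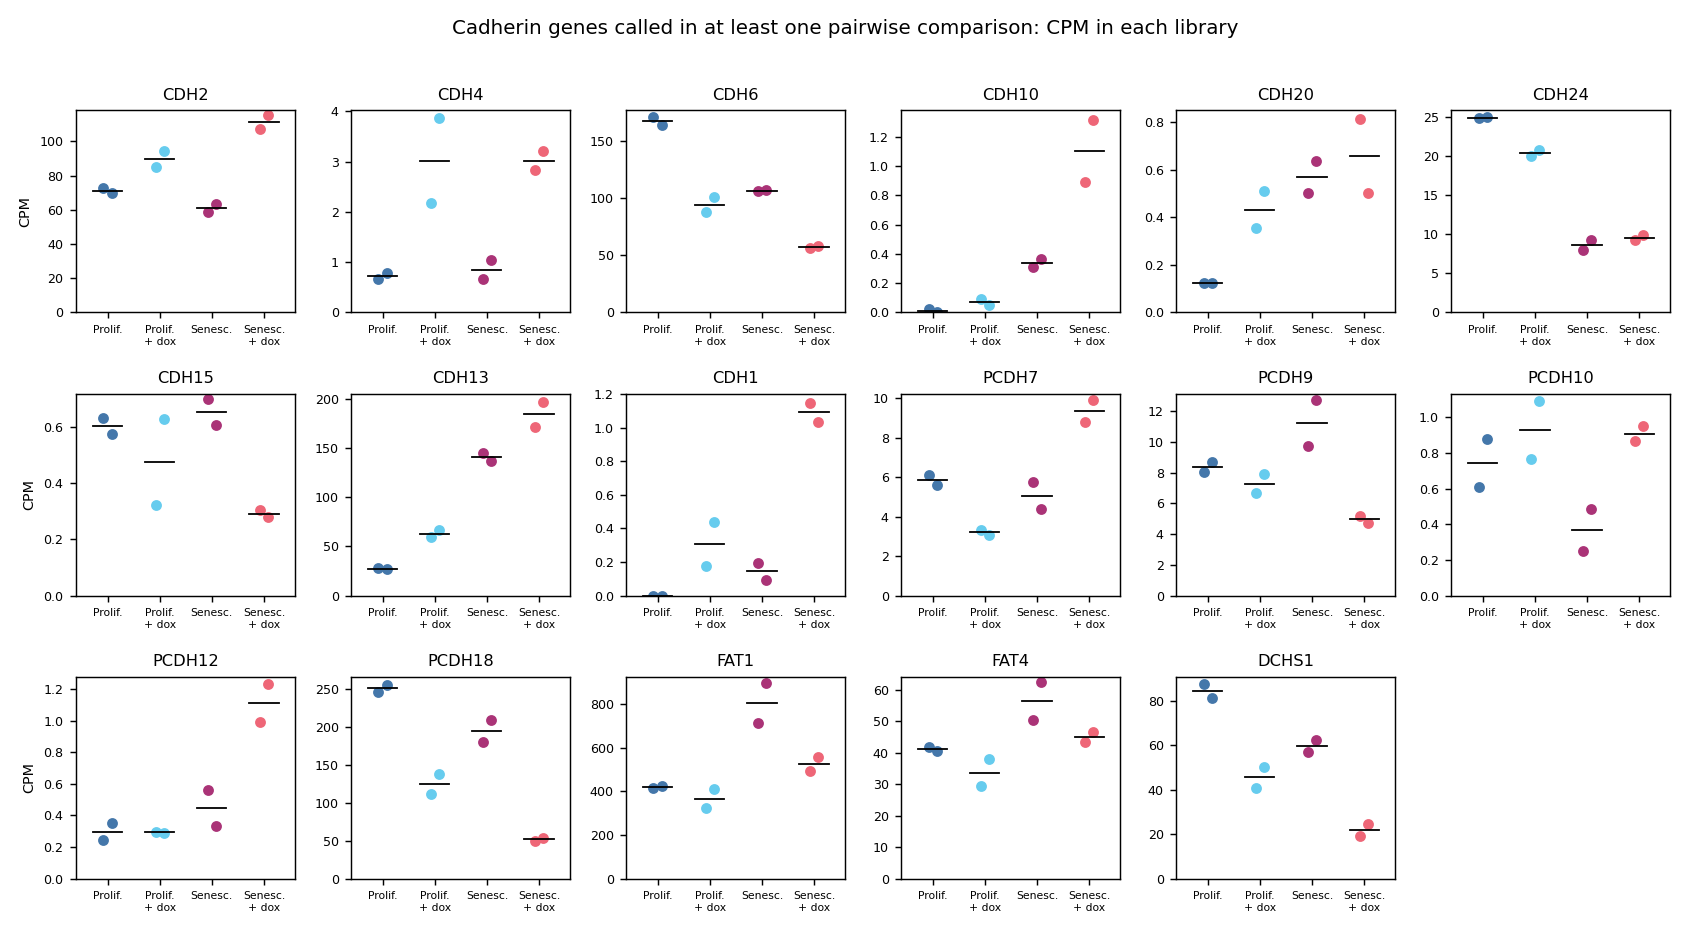
CPM in each library for the 17 members called in at least 1 pairwise comparison; each point is a library, each line the mean of 2, and every axis starts at 0. PCDH18, CDH6 and DCHS1 step down with both treatments, CDH13 steps up, and PCDH7 drops with doxycycline in proliferating cells and climbs in senescent ones.

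Among the classical cadherins of the first type, N-cadherin rose with doxycycline in both states, more so in senescent cells. CDH2 (chr18:27950966-28177446, minus strand) measured 72.7 and 69.7 CPM in proliferating cells, 85.2 and 94.6 with doxycycline, 58.9 and 63.4 in senescent cells, and 107 and 115 in senescent cells with doxycycline. No 2 groups overlapped, and the senescent libraries without doxycycline were the lowest and those with it the highest. The rise with doxycycline was 0.34 (SE 0.08, adjusted p = 0.00694) in proliferating and 0.86 (SE 0.08, adjusted p = 5.81e-07) in senescent cells, and the difference between them was 0.53 (SE 0.12, adjusted p = 0.00476). CDH2 fell slightly with senescence without doxycycline (-0.22, SE 0.08, adjusted p = 0.0311) and rose with it (0.31, SE 0.08, adjusted p = 0.00448). The smaller changes rested on single libraries: without proliferating replicate 1 or 2 the adjusted p for doxycycline in proliferating cells was 0.0501 or 0.107. Without proliferating replicate 1 or 2 or senescent replicate 1 that for senescence without doxycycline was 0.186, 0.0869 or 0.169, and without senescent with doxycycline replicate 2 that for senescence with doxycycline was 0.0638.

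R-cadherin, CDH4, a close relative of N-cadherin known from retina and kidney, rose with doxycycline in both states from a low level. CDH4 measured 0.659 and 0.776 CPM in proliferating cells and 2.18 and 3.86 with doxycycline, then 0.672 and 1.03 CPM in senescent cells and 2.83 and 3.21 with doxycycline. All 4 libraries with doxycycline lay above all 4 without it. The change was 2.07 (SE 0.31, adjusted p = 0.000154) in proliferating and 1.83 (SE 0.31, adjusted p = 0.000195) in senescent cells, and the difference of -0.25 (SE 0.44, adjusted p = 0.74) did not pass. Senescence itself gave 0.24 (SE 0.34, adjusted p = 0.56) without and -0.01 (SE 0.28, adjusted p = 0.99) with doxycycline. CDH15, the M-cadherin of muscle, measured 0.634 and 0.576 CPM in proliferating cells, 0.323 and 0.631 with doxycycline, 0.700 and 0.608 in senescent cells and 0.305 and 0.280 in senescent cells with doxycycline. The last pair lay below the other libraries, and CDH15 fell with doxycycline in senescent cells by 1.15 (SE 0.44, adjusted p = 0.0431). Leaving out proliferating replicate 1 or 2, senescent 1 or 2, or senescent with doxycycline 1 or 2 gave CDH15 an adjusted p of 0.0611, 0.0601, 0.147, 0.0754, 0.132 or 0.152.

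E-cadherin was at the edge of detection and was seen in every group but proliferating cells without doxycycline. CDH1 (chr16:68737225-68835548, plus strand) had 0 and 0 counts in proliferating cells, 6 and 18 with doxycycline, 7 and 3 in senescent cells, and 45 and 37 in senescent cells with doxycycline, at most 1.15 CPM. The 2 senescent libraries with doxycycline stood above the other 6. In GENCODE 5.6% of the exon bases of CDH1 are shared with a gene on the opposite strand. Whether the counting separated strands is not given in the sources used here. Set against a floor of 3 counts over the group, the observed level of CDH1 was 8.61-fold higher with doxycycline in proliferating cells and 3.93-fold higher with senescence. These ratios leave out the counting error of the 24 and 10 counts in the higher groups. Both changes were called (adjusted p = 0.00143 and 0.00503). CDH1 met the count limit for members only through senescent cells with doxycycline. Its calls against that group therefore depend in part on how members were chosen. In senescent cells doxycycline raised CDH1 by 2.88 (SE 0.55, adjusted p = 0.00059), and senescence with doxycycline by 1.79 (SE 0.47, adjusted p = 0.00523). Without proliferating with doxycycline replicate 1 or senescent with doxycycline replicate 1 the last p was 0.0616 or 0.0511. The difference of the doxycycline changes did not pass (adjusted p = 0.14). Beside these values, the 17 epithelial markers summed to 238 to 239 CPM in proliferating cells, 504 to 520 with doxycycline, 153 to 163 in senescent cells and 603 to 658 with doxycycline. KRT18 and KRT8 had the highest levels in that list: KRT18 averaged 160, 392, 85.2 and 479 CPM and KRT8 47.2, 90.1, 37.5 and 125 CPM in the same order. KRT14, a keratin of basal epithelium, had 0 and 0 counts in proliferating cells, 9 and 11 with doxycycline, 0 and 1 in senescent cells and 48 and 29 in senescent cells with doxycycline, and was called higher with doxycycline in both states (adjusted p = 0.00203 and 3.15e-05). OCLN, a tight junction protein, was called higher with doxycycline in senescent cells (adjusted p = 0.0308). KRT15 and KRT7 went the other way there, with log2 changes of -1.31 (SE 0.21, adjusted p = 9.05e-05) and -1.23 (SE 0.22, adjusted p = 0.00029). Of 10 epithelial markers tested, 4 rose and 2 fell with doxycycline in senescent cells, and 3 rose and none fell in proliferating cells. Of all genes tested, 22.6% and 12.6% were called higher and 23.8% and 10.4% lower in that order. EPCAM stayed at or under 0.0608 CPM in every library, and GRHL2 had 1 count in each senescent library with doxycycline and 0 in the others. In bulk RNA, more cells of a type and more RNA per cell cannot be told apart, and the part of epithelial-like cells in the CDH1 counts was not tested.

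Cadherins of the second type, which share a variant adhesive domain, went both ways. CDH6 (K-cadherin, chr5:31193750-31329146, plus strand), known from kidney and neural crest, measured 171 and 164 CPM in proliferating cells, 87.7 and 101 with doxycycline, 106 and 107 in senescent cells and 56.7 and 58.4 in senescent cells with doxycycline. The groups did not overlap, and the libraries that had both treatments were the lowest. CDH6 fell with doxycycline by 0.83 in proliferating (SE 0.08, adjusted p = 2.06e-06) and 0.89 in senescent cells (SE 0.08, adjusted p = 4.23e-07), and the difference was -0.06 (SE 0.11, adjusted p = 0.76). Senescence lowered it by 0.65 without doxycycline (SE 0.08, adjusted p = 4.29e-06) and 0.71 with it (SE 0.08, adjusted p = 2.45e-06). On the log2 scale the 2 treatments therefore lowered CDH6 by like amounts alone and on top of each other.

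CDH24 (chr14:23047062-23057538, minus strand), another second-type cadherin, followed senescence. Its levels were 24.9 and 25.0 CPM in proliferating cells, 19.97 and 20.8 with doxycycline, 8.01 and 9.21 in senescent cells and 9.24 and 9.90 in senescent cells with doxycycline. Every senescent library lay under every proliferating one. CDH24 fell with senescence by 1.54 without doxycycline (SE 0.10, adjusted p = 4.89e-09) and by 1.09 with it (SE 0.10, adjusted p = 2.86e-07). The change with doxycycline was -0.29 (SE 0.10, adjusted p = 0.0442) in proliferating and 0.15 (SE 0.11, adjusted p = 0.27) in senescent cells, with a difference of 0.44 (SE 0.15, adjusted p = 0.0444). Both of these p-values near the threshold were lost without single libraries. For doxycycline in proliferating cells the adjusted p was 0.220, 0.236, 0.154, 0.0632, 0.0549 or 0.0577 without proliferating 1, 2, proliferating with doxycycline 1, 2, or senescent with doxycycline 1 or 2. For the difference it was 0.155, 0.166, 0.0794, 0.0545, 0.170, 0.0685 or 0.143 without proliferating 1, 2, proliferating with doxycycline 1, 2, senescent 1, or senescent with doxycycline 1 or 2.

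CDH10 and CDH20, both known from brain, were low and rose with senescence in cells without doxycycline. CDH10 had 1 and 0 counts in proliferating cells, 3 and 2 with doxycycline, 11 and 12 in senescent cells and 35 and 47 in senescent cells with doxycycline. The senescent libraries did not overlap the proliferating ones. The ratio of CDH10 counts per effective library size was 27.1 (95% counting interval 4.40 to 1117) for senescence without doxycycline, called at an adjusted p of 0.000455. For doxycycline in proliferating cells the ratio was 5.38 (0.602 to 254), which was not called (adjusted p = 0.22). CDH10 too met the count limit for members only through senescent cells with doxycycline, so calls against that group depend in part on that choice. Senescence with doxycycline raised CDH10 by 3.98 (SE 0.58, adjusted p = 2.64e-05), and doxycycline in senescent cells by 1.70 (SE 0.45, adjusted p = 0.00587). Without senescent with doxycycline replicate 2 the last p was 0.0941.

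CDH20 measured 0.122 and 0.125 CPM in proliferating cells, 0.353 and 0.509 with doxycycline, 0.504 and 0.638 in senescent cells, and 0.814 and 0.503 in senescent cells with doxycycline. The proliferating libraries without doxycycline were the lowest, and the other 3 groups overlapped. CDH20 rose by 1.79 (SE 0.53, adjusted p = 0.0231) with doxycycline in proliferating cells and by 2.17 (SE 0.52, adjusted p = 0.00193) with senescence. Neither a further change with doxycycline in senescent cells (0.22, SE 0.41, adjusted p = 0.70) nor with senescence under doxycycline (0.60, SE 0.42, adjusted p = 0.24) was called. Without proliferating replicate 1 or 2 or proliferating with doxycycline replicate 2, the adjusted p of its rise with doxycycline was 0.129, 0.120 or 0.126. CDH11, the cadherin that fibroblasts are best known for, had 3 to 11 counts in every library, 0.0751 to 0.334 CPM, and was not called. RefSeq lists no gene overlapping CDH11, but in GENCODE the gene AC010533.1, on the same strand, shares 1.9% of its exon bases. The 12 fibroblast markers summed to between 22853 and 42918 CPM in the same libraries.

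**Figure D3:**
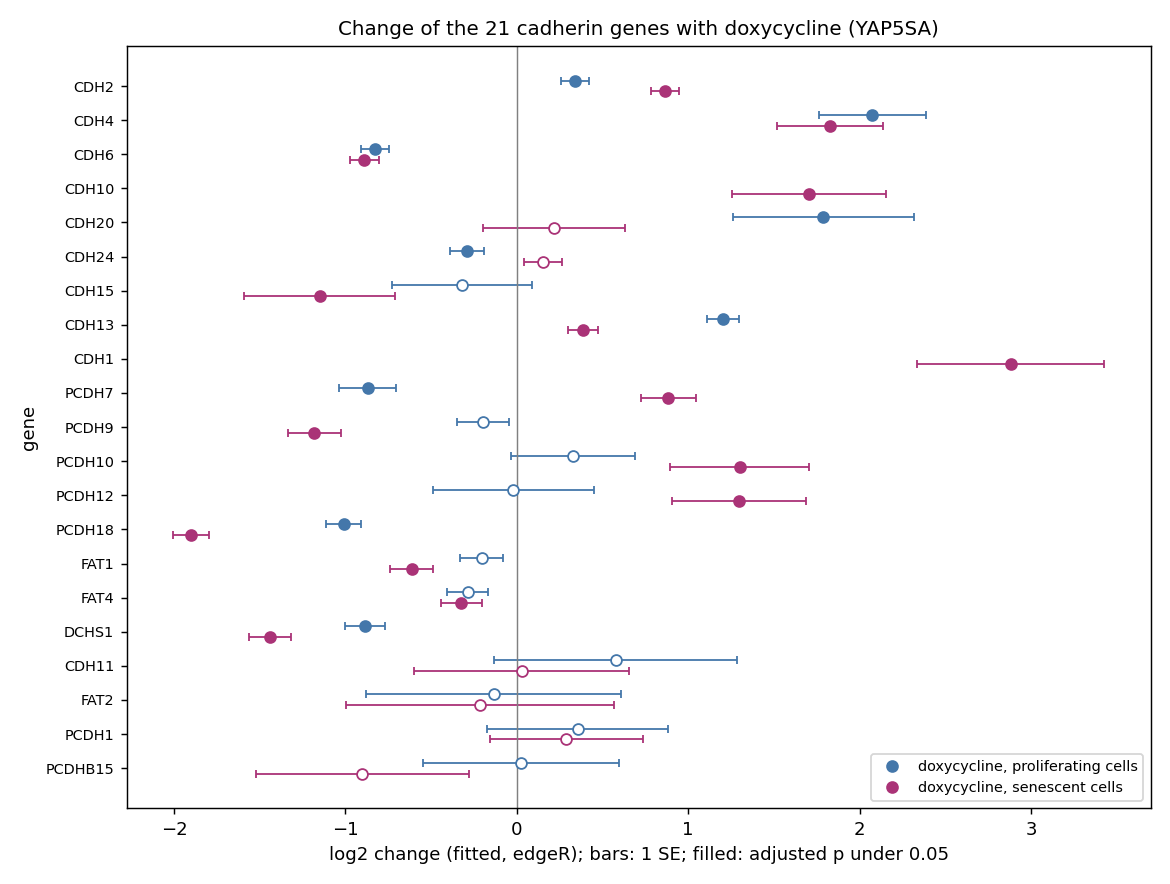
Fitted log2 change with doxycycline for the 21 members in proliferating (blue) and senescent (purple) cells; bars are 1 SE and filled points have an adjusted p under 0.05. CDH1 and CDH10 are left out for proliferating cells, where counts were 0 or 1; PCDH7 is the member with filled points on both sides of 0.

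CDH13, T-cadherin, is tethered to the membrane by a lipid anchor instead of a cytoplasmic tail and is known as a receptor for adiponectin. It was the member with the largest change among those above 10 CPM. CDH13 (chr16:82626803-83800640, plus strand) measured 28.3 and 26.6 CPM in proliferating cells, 59.2 and 67.0 with doxycycline, 146 and 137 in senescent cells and 172 and 197 in senescent cells with doxycycline. Its 4 groups formed 4 steps with no overlap. Senescence raised it by 2.36 (SE 0.09, adjusted p = 8.9e-12) without and 1.55 (SE 0.09, adjusted p = 1.08e-09) with doxycycline, and doxycycline raised it by 1.20 (SE 0.09, adjusted p = 1.5e-07) in proliferating and 0.39 (SE 0.09, adjusted p = 0.0021) in senescent cells. The difference between the doxycycline changes was -0.82 (SE 0.13, adjusted p = 0.000407), so the 2 treatments together gave less than the sum of each alone on the log2 scale. Without senescent with doxycycline replicate 2, the change with doxycycline in senescent cells was 0.28 with an adjusted p of 0.0524.

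Of the protocadherins outside the clusters, PCDH18, the most abundant, fell everywhere it was compared. PCDH18 (chr4:137518918-137532494, minus strand; its start region is printed above) measured 247 and 256 CPM in proliferating cells, 112 and 138 with doxycycline, 180 and 209 in senescent cells and 50.04 and 54.3 in senescent cells with doxycycline. No groups overlapped, and the libraries that had both treatments lay at the bottom of the range. Doxycycline lowered PCDH18 by 1.01 (SE 0.10, adjusted p = 3.04e-06) in proliferating and by 1.90 (SE 0.11, adjusted p = 1.68e-09) in senescent cells, with a difference of -0.89 (SE 0.14, adjusted p = 0.000559). Senescence lowered it by 0.37 (SE 0.10, adjusted p = 0.00486) without and by 1.26 (SE 0.10, adjusted p = 6.74e-08) with doxycycline. Without senescent replicate 1 the first of these was -0.27 with an adjusted p of 0.0672. Of 12 fibroblast markers, 9 fell and 1 rose with doxycycline in proliferating cells, and 7 fell and 2 rose in senescent cells. With senescence 3 fell and 6 rose without doxycycline, and 6 fell and 5 rose with it. Of all genes tested, 10.4%, 23.8%, 29.4% and 28.7% were called lower and 12.6%, 22.6%, 29.8% and 26.8% higher in that order. The summed level of the fibroblast markers was 34125 to 34539 CPM in proliferating cells, 22853 to 23939 with doxycycline, 39844 to 42918 in senescent cells and 23005 to 27990 with doxycycline. The part of these marker changes in the falls of PCDH18, CDH6 and DCHS1 was not tested.

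PCDH7, a protocadherin known to bind the phosphatase PP1 and the SET protein, changed direction with the state of the cells. PCDH7 (chr4:30720415-31146805, plus strand) measured 6.12 and 5.58 CPM in proliferating cells, 3.32 and 3.08 with doxycycline, 5.74 and 4.38 in senescent cells and 8.81 and 9.90 in senescent cells with doxycycline. Both doxycycline pairs lay apart from their controls, below them in proliferating cells and above them in senescent cells. Doxycycline lowered PCDH7 by 0.87 (SE 0.17, adjusted p = 0.00137) in proliferating cells and raised it by 0.88 (SE 0.16, adjusted p = 0.000372) in senescent cells, and the difference was 1.76 (SE 0.23, adjusted p = 0.000108). Senescence gave -0.21 (SE 0.16, adjusted p = 0.29) without doxycycline and a rise of 1.55 (SE 0.17, adjusted p = 1.23e-06) with it.

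PCDH9, a protocadherin of neurons, measured 8.08 and 8.69 CPM in proliferating cells, 6.68 and 7.91 with doxycycline, 9.77 and 12.8 in senescent cells and 5.19 and 4.72 in senescent cells with doxycycline. The senescent libraries were the highest without doxycycline and the lowest with it. In senescent cells doxycycline lowered PCDH9 by 1.18 (SE 0.15, adjusted p = 1.46e-05), in proliferating cells the change was -0.20 (SE 0.15, adjusted p = 0.38), and the difference of -0.98 (SE 0.21) passed at 0.00454. Senescence raised it by 0.43 (SE 0.15, adjusted p = 0.0212) without doxycycline and lowered it by 0.56 (SE 0.15, adjusted p = 0.00635) with it. Both were sensitive to single libraries: the first had an adjusted p of 0.135, 0.0592 or 0.277 without proliferating 1 or 2 or senescent 2, and the second 0.0599 or 0.0587 without proliferating with doxycycline 2 or senescent with doxycycline 2. RefSeq places other genes, antisense ones among them, over 22.5% of the PCDH9 span, but 0.5% of its exon bases are shared with another gene. The largest such exon shares among the members were 10.2% for PCDHB15, 10.0% for CDH6, 9.4% for DCHS1 and 5.6% for CDH1. The strand setting of the counting is not given in the sources used here.

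The remaining protocadherins outside the clusters were low. PCDH10, known from axon growth and as a tumour suppressor, measured 0.610 and 0.876 CPM in proliferating cells, 0.765 and 1.09 with doxycycline, 0.252 and 0.486 in senescent cells and 0.865 and 0.950 in senescent cells with doxycycline. The senescent libraries without doxycycline were the lowest. PCDH10 fell with senescence without doxycycline by 1.01 (SE 0.41, adjusted p = 0.0445) and rose with doxycycline in senescent cells by 1.30 (SE 0.41, adjusted p = 0.0159). The fall had an adjusted p of 0.259, 0.295, 0.0619 or 0.0636 without proliferating 2, senescent 1 or senescent with doxycycline 1 or 2, and the rise 0.147, 0.0528 or 0.0773 without senescent 1 or senescent with doxycycline 1 or 2. PCDH12, a protocadherin of endothelium, measured 0.244 and 0.351 CPM, 0.294 and 0.291 with doxycycline, 0.560 and 0.334 in senescent cells and 0.993 and 1.23 in senescent cells with doxycycline. The last pair stood above the other 6 libraries, with a rise of 1.30 (SE 0.39, adjusted p = 0.013) with doxycycline in senescent cells and of 1.91 (SE 0.41, adjusted p = 0.000942) with senescence under doxycycline. Without senescent 2 or senescent with doxycycline 2 the former had an adjusted p of 0.107 or 0.100. RNF14, on the opposite strand, covers 60.6% of the PCDH12 span but shares only 1.6% of its exon bases. Of 10 endothelial markers, PECAM1 stayed at or under 0.112 CPM in every library, and ROBO4 averaged 12.2 to 13.1 CPM. The summed level, mostly TEK, was 83.1 to 84.8, 62.2 to 66.4, 152 to 168 and 112 to 120 CPM across the groups in that order. Of 5 tested, 2 rose and none fell with senescence without doxycycline, and 2 rose and 1 fell with it. With doxycycline 1 rose and 1 fell in proliferating cells, and 1 fell in senescent cells. Of all genes tested, 29.8%, 26.8%, 12.6% and 22.6% were called higher and 29.4%, 28.7%, 10.4% and 23.8% lower in that order. PCDH1, an adhesion protein of airway epithelium, ranged from 0.243 to 0.868 CPM and was not called.

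**Figure D4:**
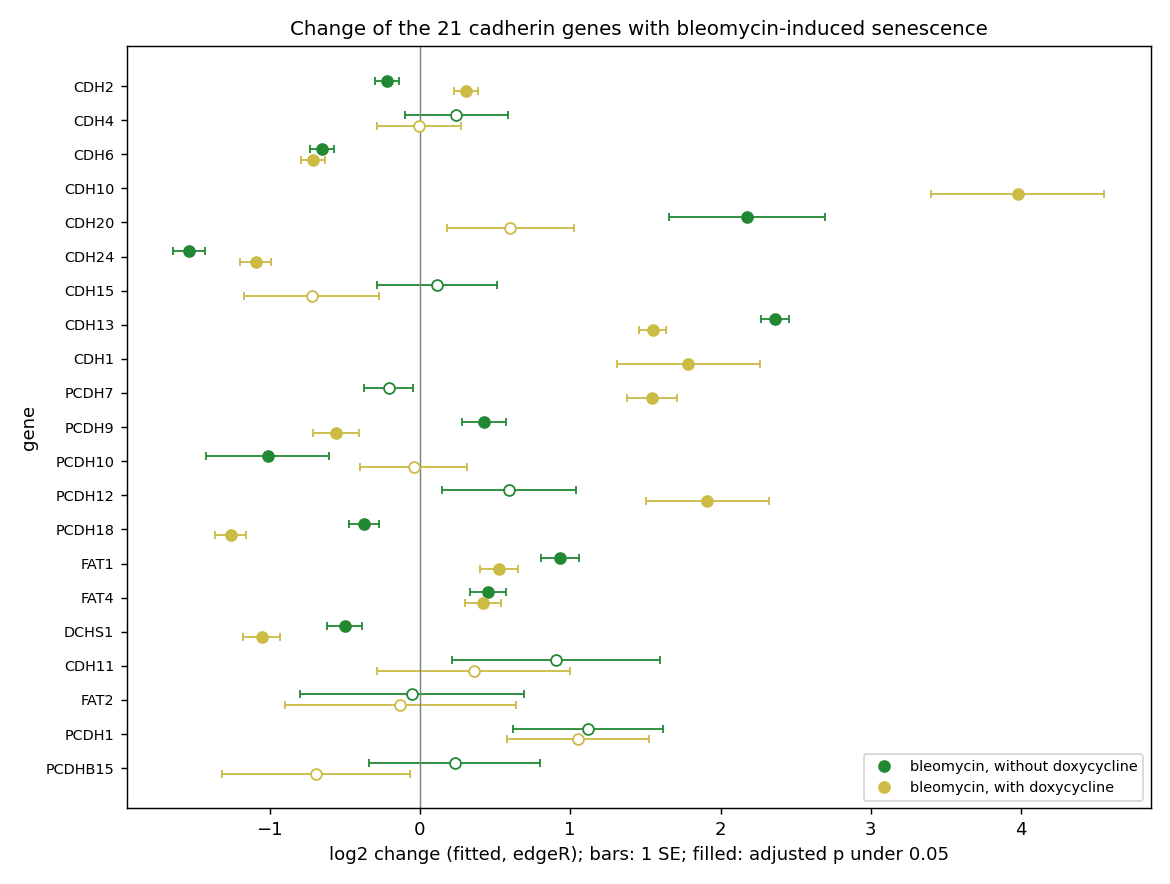
Fitted log2 change with bleomycin-induced senescence for the 21 members without (green) and with (yellow) doxycycline; bars are 1 SE and filled points have an adjusted p under 0.05. CDH1 and CDH10 are left out without doxycycline, where proliferating counts were 0 or 1; CDH13 has the largest filled point among genes above 10 CPM and CDH24 the lowest.

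The giant cadherins divided: FAT1 and FAT4 rose with senescence while DCHS1 fell. FAT1 (chr4:186587783-186726722, minus strand), the member with the highest count, measured 417 and 427 CPM in proliferating cells, 322 and 410 with doxycycline, 714 and 898 in senescent cells and 495 and 559 in senescent cells with doxycycline. All senescent libraries lay above all proliferating ones. Senescence raised FAT1 by 0.93 (SE 0.13, adjusted p = 2.1e-05) without and 0.52 (SE 0.12, adjusted p = 0.00278) with doxycycline. Doxycycline lowered it by 0.61 (SE 0.12, adjusted p = 0.00123) in senescent cells, against -0.21 (SE 0.12, adjusted p = 0.27) in proliferating cells, and the difference of -0.41 (SE 0.18, adjusted p = 0.12) did not pass. FAT4 (chr4:125316399-125492932, plus strand), the receptor that binds DCHS1, measured 41.7 and 40.6, 29.4 and 37.9, 50.3 and 62.5, and 43.5 and 46.6 CPM across the groups in that order. Its senescent libraries also lay above the proliferating ones of all kinds. FAT4 rose with senescence by 0.45 (SE 0.12, adjusted p = 0.00468) without and 0.42 (SE 0.12, adjusted p = 0.0092) with doxycycline, and fell with doxycycline in senescent cells by 0.32 (SE 0.12, adjusted p = 0.0393).

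Several of the FAT4 calls rested on single libraries. Without senescent 2 the adjusted p of its rise with senescence was 0.0687, and without proliferating with doxycycline 1 or senescent with doxycycline 2 that of its rise under doxycycline was 0.105 or 0.0835. Its fall in senescent cells had an adjusted p of 0.0506, 0.329, 0.223 or 0.0883 without proliferating 2, senescent 2 or senescent with doxycycline 1 or 2. FAT2 had 3 to 14 counts in every library and was not called, and other genes, SLC36A1 among them, cover 57.3% of its span, while 4.1% of its exon bases are shared with another gene.

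DCHS1 (chr11:6621323-6655854, minus strand), the ligand of FAT4, measured 87.5 and 81.2 CPM in proliferating cells, 40.9 and 50.2 with doxycycline, 56.8 and 62.5 in senescent cells and 19.2 and 24.7 in senescent cells with doxycycline. The groups did not overlap, and the order of the levels was that of PCDH18. DCHS1 fell with doxycycline by 0.89 (SE 0.12, adjusted p = 8.29e-05) in proliferating and 1.44 (SE 0.12, adjusted p = 4.68e-07) in senescent cells, and with senescence by 0.50 (SE 0.12, adjusted p = 0.00203) without and 1.05 (SE 0.12, adjusted p = 5.57e-06) with doxycycline. The difference of the doxycycline changes was -0.55 (SE 0.17, adjusted p = 0.0332). It lost its call without proliferating 1 or 2, proliferating with doxycycline 2, senescent 1 or 2, or senescent with doxycycline 1, at adjusted p = 0.0575, 0.120, 0.104, 0.0503, 0.115 or 0.185. Ligand and receptor thus moved in opposite directions with senescence, DCHS1 down and FAT4 up.

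The doxycycline change differed between the states for 7 members, with 3 more positive in senescent cells, PCDH7, CDH2 and CDH24, and 4 more negative, PCDH9, PCDH18, CDH13 and DCHS1. Over all genes 19.8% were called, 8.07% more positive and 11.8% more negative, and the medians were -0.41 for the members and -0.03 for all genes. Only PCDH7 among the 7 had a called change in each direction. For CDH2, PCDH18, CDH13 and DCHS1 the change had the same sign and was called in both states. Scaled by total counts alone, the split was 3 and 3 and the median of all genes moved to 0.15.

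The clustered protocadherins could not be read gene by gene. These genes sit side by side on chromosome 5 in alpha, beta and gamma clusters, and neurons choose among them to label themselves. Of 54 symbols in the clusters, 52 were listed at 0 in all libraries, PCDHGA1 had 5 counts and PCDHB15 had 67. All 54 overlap cluster-wide RefSeq genes over at least 99.7% of their span, 37 of them wholly, with 171 bases of PCDHGA1 outside. The table counts these cluster-wide genes as rows of their own: PCDHA@ with 10 counts, PCDHB@ with 1175 and PCDHG@ with 2801. TAF7, a gene between the beta and gamma clusters, had 42208 counts, and the flanking ZMAT2 and DIAPH1 had 19798 and 42616. How the counting treated reads falling on 2 rows is not known from the sources used here, so a 0 for a clustered symbol is not a measure of its expression. PCDHB15 itself measured 0.112 to 0.336 CPM and was not called.

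**Figure D5:**
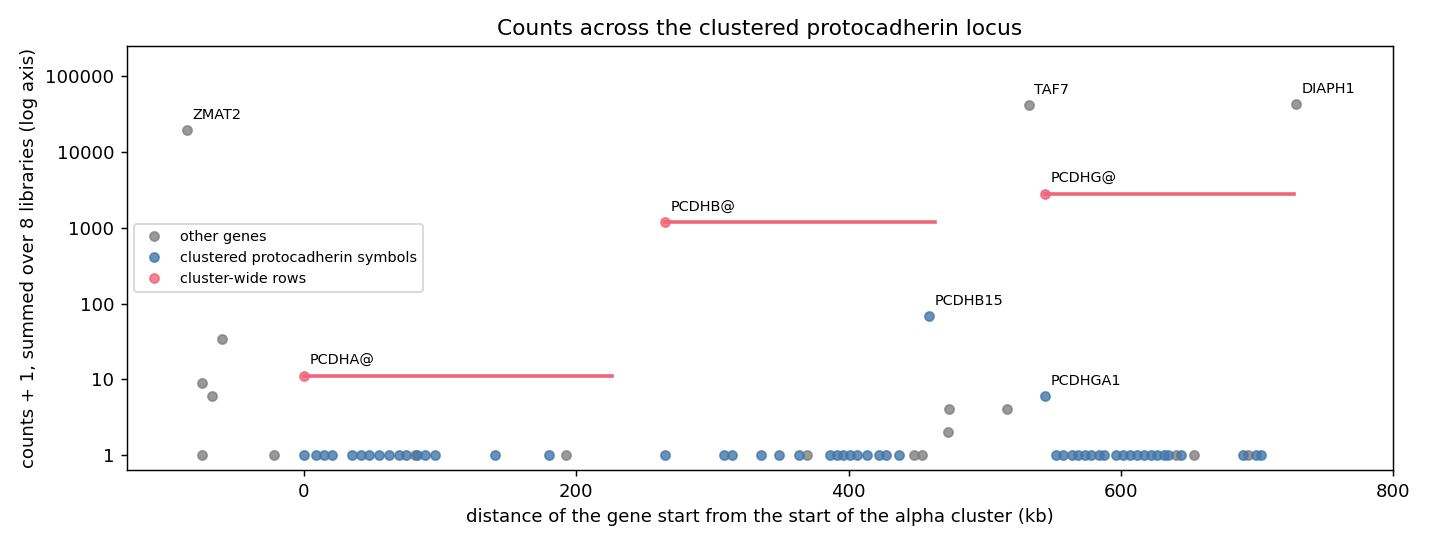
Counts summed over the 8 libraries along the clustered protocadherin locus, by the distance of each gene's start from the start of the alpha cluster, with 1 added and a log axis. Blue points are the 54 clustered symbols, all but PCDHB15 and PCDHGA1 at 0; red bars span the cluster-wide rows, with 10, 1175 and 2801 counts.

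The cluster-wide rows PCDHB@ and PCDHG@ moved in opposite directions with senescence without doxycycline. PCDHB@ measured 3.81 and 3.48 CPM in proliferating cells, 2.35 and 3.06 with doxycycline, 5.49 and 6.90 in senescent cells and 3.28 and 3.41 in senescent cells with doxycycline. The senescent libraries without doxycycline were the highest. PCDHB@ rose with senescence without doxycycline by 0.76 (SE 0.19, adjusted p = 0.00265), its change with senescence under doxycycline was 0.30 (SE 0.20, adjusted p = 0.21), and it fell with doxycycline in senescent cells by 0.89 (SE 0.19, adjusted p = 0.00144). PCDHG@ measured 11.5 and 12.99 CPM in proliferating cells, 9.70 and 11.6 with doxycycline, 5.63 and 6.41 in senescent cells and 8.70 and 6.99 in senescent cells with doxycycline. Its senescent libraries lay under the proliferating ones. PCDHG@ fell with senescence by 1.02 (SE 0.15, adjusted p = 1.77e-05) without and 0.44 (SE 0.14, adjusted p = 0.0159) with doxycycline, and rose with doxycycline in senescent cells by 0.39 (SE 0.15, adjusted p = 0.0439). Which reads of the cluster genes each such row holds is not known. These rows were not followed through the alternatives or as libraries were left out.

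Of 47 symbols outside the clusters, 20 had 1 to 49 counts and 7 were listed at 0, so they were not members. The 7 desmosomal cadherins had 6 counts in all: 3 for DSC3, 2 for DSC2 and 1 for DSG3, with DSG2 listed at 0. TTR and B4GALT6, genes next to DSG2, were also listed at 0, and TRAPPC8, further along, had 10707 counts. VE-cadherin (CDH5) had 5 counts, P-cadherin (CDH3) 8, FAT3 39, DCHS2 8 and PCDH17 1. Beside them CDH7, CDH9, PCDH8, DSC1, DSG1 and DSG4 were listed at 0.

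Catenins and plaque proteins link these cadherins to the cytoskeleton, and 12 of 17 listed were tested. With senescence 5 rose and 2 fell without doxycycline, and 6 rose and none fell with it; with doxycycline 3 rose in proliferating cells, and 4 rose and 2 fell in senescent cells. The list's median changes were 0.24, 0.49, 0.04 and 0.25 in that order. Of all genes tested, 29.8%, 26.8%, 12.6% and 22.6% were called higher and 29.4%, 28.7%, 10.4% and 23.8% lower in that order. These shares also stand beside the counts of each list below. DSP, the desmosomal plaque protein desmoplakin, averaged 9.69 CPM in proliferating cells, 39.7 with doxycycline, 84.6 in senescent cells and 95.3 in those with it, while the desmosomal cadherins had 6 counts in all. DSP rose by 2.03 (SE 0.11, adjusted p = 1.5e-09) with doxycycline in proliferating cells and by 3.12 (SE 0.11, adjusted p = 1.7e-12) with senescence. JUP, plakoglobin, averaged 3.65, 3.57, 22.4 and 9.88 CPM in the same order, a rise of 2.62 (SE 0.13, adjusted p = 1.8e-10) with senescence. PKP2, plakophilin, averaged 0.0244, 0.726, 0.321 and 2.14 CPM. The classical catenins changed less: CTNNB1 averaged 275, 297, 239 and 304 CPM and CTNNA1 408, 448, 449 and 526 CPM, and in senescent cells with doxycycline they rose by 0.34 (SE 0.08, adjusted p = 0.0028) and 0.23 (SE 0.08, adjusted p = 0.032). CTNND1, p120 catenin, averaged 0.285 to 1.48 CPM, but 99.4% of its span lies in the read-through gene TMX2-CTNND1, so its level is uncertain.

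Repressors and activators of the E-cadherin gene gave 9 tested of 13. In senescent cells doxycycline lowered 6 and raised none (median -0.86), and in proliferating cells it lowered 2 and raised 1 (median -0.22). Of all genes tested, 23.8% and 10.4% were called lower and 22.6% and 12.6% higher in that order. The list pools repressors with activators, so these counts have no single meaning for CDH1. ZEB1, a repressor of CDH1, averaged 187 CPM in proliferating cells, 117 with doxycycline, 272 in senescent cells and 118 in those with it. Its fall with doxycycline was 0.67 (SE 0.10, adjusted p = 0.00014) in proliferating and 1.21 (SE 0.10, adjusted p = 1.3e-07) in senescent cells. SNAI2, another repressor, averaged 75.9, 76.2, 70.5 and 37.8 CPM, and TWIST1 45.0, 23.5, 18.4 and 13.5 CPM in the same order. With senescence 5 rose and 2 fell without doxycycline (median 0.42), and 4 rose and 3 fell with it (median 0.00). ELF3, an epithelial factor, averaged 0.0122 CPM in proliferating and 0.663 CPM in senescent cells.

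Proteases that process cadherins gave 6 tested of 8: 5 rose and none fell with senescence (median 0.58), 3 rose and 1 fell with senescence under doxycycline (median 0.21), none was called with doxycycline in proliferating cells (median 0.00), and 4 fell with it in senescent cells (median -0.26). NCSTN, a gamma-secretase subunit, averaged 189, 185, 444 and 229 CPM in proliferating cells without and with doxycycline and senescent cells without and with it. Partners of Fat and Dachsous in planar polarity gave 13 tested of 17. Doxycycline raised 1 and lowered 7 in proliferating cells (median -0.26) and raised 2 and lowered 7 in senescent cells (median -0.44), while senescence raised 6 and lowered 5 without it (median -0.01) and raised 5 and lowered 6 with it (median -0.08). FJX1, the human relative of the fly kinase that modifies Fat and Dachsous repeats, averaged 43.4, 68.1, 43.2 and 52.1 CPM and rose with doxycycline in both states, by 0.65 (SE 0.09, adjusted p = 6e-05) and 0.27 (SE 0.09, adjusted p = 0.021). CELSR2, a flamingo cadherin, averaged 5.27, 5.11, 3.38 and 8.77 CPM.

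All 10 signalling partners of protocadherins were tested. Doxycycline raised 4 and lowered 1 in proliferating cells (median 0.10) and raised 6 and lowered 1 in senescent cells (median 0.22), and senescence raised 4 and lowered 3 without it (median 0.07) and raised 5 and lowered 1 with it (median 0.25). FYN, a SRC-family kinase that acts with clustered protocadherins, averaged 1.37 CPM in proliferating cells, 15.5 with doxycycline, 5.38 in senescent cells and 24.8 in those with it. Its rise with doxycycline was 3.50 (SE 0.18, adjusted p = 2.3e-09) in proliferating and 2.20 (SE 0.16, adjusted p = 3.1e-08) in senescent cells. CYFIP2, a subunit of the WAVE complex that delta protocadherins bind, averaged 0.816, 2.92, 6.55 and 11.96 CPM in the same order.

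Chromatin factors of the clustered protocadherins, 12 tested of 12, had more members that fell than rose in each pairwise comparison: 9 fell with doxycycline in proliferating cells (median -0.35), 6 fell and 1 rose in senescent cells (median -0.17), 8 fell and 1 rose with senescence (median -0.62) and 8 fell under doxycycline (median -0.47). Of all genes tested, 10.4%, 23.8%, 29.4% and 28.7% were called lower in these comparisons. DNMT1, the maintenance DNA methyltransferase, averaged 195, 152, 65.0 and 44.8 CPM, and CTCF, which loops the cluster promoters to their enhancers, 56.4, 44.4, 29.3 and 26.6 CPM. Other cadherin superfamily genes gave 6 tested of 9, with 4 up and 1 down with senescence (median 0.88), 3 up and 1 down under doxycycline (median 0.66), 1 down with doxycycline in proliferating cells (median -0.24), and 1 up and 1 down in senescent cells (median -0.25). CLSTN3, a calsyntenin, averaged 14.7, 11.1, 38.8 and 32.6 CPM, a rise of 1.40 (SE 0.10, adjusted p = 1.5e-08) with senescence.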

How the data were processed

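Messenger RNA was sequenced from 8 libraries of the cell line in 4 groups of 2. The values are the raw counts per gene that the authors deposited, over 54628 rows, and every library was used. Per the submitters' processing notes, the hg38 build was used with featureCounts 1.6.3, HISAT2 2.1.0 and Trimmomatic 0.36, and per the labels' protocols the libraries came from a stranded mRNA kit. Their settings, annotation, strand option and treatment of reads on overlapping genes were not given in the sources used here.

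The software was R 4.3.3 with DESeq2 1.42.0, limma 3.58.1 and edgeR 4.0.16, and Python 3.11.15 with matplotlib 3.10.9 for plots. The 17155 genes that passed filterByExpr were scaled by TMM and fitted with the robust quasi-likelihood model over 4 groups, leaving 4 residual degrees of freedom. Two-sided F tests of 5 contrasts were adjusted by Benjamini-Hochberg over all genes tested. No list was tested as a set. CPM are counts over the TMM-scaled library size, times 1000000. A group at 0 was set to a floor of 3 counts for bounds, 0.0371 CPM in proliferating cells, and a ratio with 1 count has an exact 95% interval. Bounds leave out the error of the higher group's counts, and intervals cover counting error only. Gene lengths, positions and shared exon bases come from GENCODE for hg38, overlaps of gene spans and promoters from RefSeq.

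The members, the gene lists and the tests were chosen with earlier results of these data known. Values in each library were set to be given for up to 8 called members with the largest rise or fall per pairwise comparison, the 5 largest differences of the doxycycline change, and members with a fixed role; of the partner lists up to 4 called genes per list and comparison could be named. CTNNB1, CTNNA1 and CTCF fall outside that rule and were named for their known role after their values were seen. Replicate numbers follow the titles. The labels do not say that they pair libraries, and residuals of same-numbered libraries correlated at only -0.0121 to 0.159 across genes, so the model has no replicate block. Replicates differed by more than counting noise, with a chi-square per degree of freedom of 3.44 to 17.8. The alternatives were other size factors, total counts alone, DESeq2, limma-voom, no filter, a stricter filter, only the 4 libraries compared, replicate numbers as a block, estimation that was not robust, and leaving out 1 library at a time.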

Additional observations from a re-analysis of the deposited data

Results flagged for a closer look

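For 7 of the 21 members the change with doxycycline differed between senescent and proliferating cells by the test of the difference itself (edgeR's interaction term, adjusted over all genes). The log2 difference, senescent minus proliferating, was 1.76 for PCDH7, 0.53 for CDH2 and 0.44 for CDH24. It was -0.98 for PCDH9, -0.89 for PCDH18, -0.82 for CDH13 and -0.55 for DCHS1. In PCDH7 the change had opposite signs in the 2 states, and in CDH2, PCDH18, CDH13 and DCHS1 the same sign in both. The differences of CDH24 and DCHS1 lost their call when single libraries were left out. With 2 libraries in each group no search for outlying libraries was made.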

How the results depend on the processing

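No called value of a member changed direction under any alternative. Partner genes, markers and the cluster-wide rows were not followed one by one through the alternatives. Called in every setting that gave a value were 7 of the 10 members called for doxycycline in proliferating cells, 9 of 15 in senescent cells, 8 of 13 for senescence without doxycycline, 9 of 13 with it, and 5 of 7 differences. Under the stricter filter, a mean log2 CPM from 1 upward, 8 members were called for doxycycline in senescent cells, since 10 members were then tested. Leaving out each library in turn, the members called were 7 to 10, 9 to 15, 10 to 13, 10 to 14 and 5 to 7 in the same order, the 9 coming without senescent with doxycycline replicate 2. Over all genes the calls for doxycycline in proliferating cells ran from 2012 to 4155 and those for the difference from 1852 to 3903 as libraries were left out. The lone library of a group was then assumed to vary like the other groups. The low ends came without proliferating replicate 2, and 2099 and 1954 without proliferating replicate 1; without senescent with doxycycline replicate 1 the difference gave 2023.

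With the title's number as a replicate block 11, 15, 13, 13 and 8 members were called, in the same order, and with the description's number 8, 14, 10, 13 and 7. The latter block ended the calls of CDH24 (adjusted p = 0.301) and CDH20 (0.150) for doxycycline in proliferating cells, of CDH15 (0.0571) for doxycycline in senescent cells, of CDH2 (0.302), PCDH9 (0.0532) and PCDH10 (0.0863) for senescence without doxycycline, and of the difference of CDH24 (0.154). With the description's number as a block, 2356 genes were called for doxycycline in proliferating cells, against 3940 without a replicate block; the cause was not tested. Scaled by total counts alone, 69.3% of the calls for doxycycline in senescent cells, 37.1% of those for senescence without doxycycline and 70.4% of the differences were on the higher side, against 48.7%, 50.3% and 40.6%. Beyond the losses given with each gene, DESeq2 did not call the doxycycline changes of CDH24 and CDH20 in proliferating cells or of CDH15, PCDH10 and PCDH12 in senescent cells, the falls of CDH2 and PCDH10 with senescence, or the difference of CDH24. Total counts alone did not call the doxycycline changes of CDH24 in proliferating and of CDH15 and FAT4 in senescent cells, the rises of FAT4 and PCDH9 with senescence without doxycycline, or the difference of DCHS1. Limma-voom did not call the fall of CDH15, the fall of PCDH10 with senescence or the difference of CDH24. Without a filter the fall of CDH15 and the doxycycline change and difference of CDH24 were lost, and with DESeq2's size factors the falls of CDH2 and PCDH10 with senescence. The fall of PCDH10 was also lost with only the 4 libraries compared, and the doxycycline change of FAT4 in senescent cells under the stricter filter. Of 84 group levels, 14 moved by more than 1 SD when scaled by total counts alone. Members under 1 CPM rest on few counts, so their changes are imprecise.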
